A study of Rattus norvegicus with 21 samples.

Results

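Within the operated group of a rat islet study, 3 libraries carried far more galectin-3 RNA than the others after the scaling given below. The genes that differed along with it are described here. The 3 animals, PX 58, PX 62 and PX 65, were chosen by their Lgals3 level, the highest 3 of 11 operated animals, and are set against the other 8. They are 3 of the 21 libraries of the series. Lgals3 is given as CPM, the counts of a gene scaled to a common library size with TMM, a factor computed by edgeR that corrects for a few very abundant genes. The lowest value inside the choice was 80.0 CPM in PX 65, and the highest outside it was 42.4 CPM in PX 41. That order rests on TMM: PX 65 had 396 Lgals3 reads of 13187959 in all, and PX 41 had 279 of 5486631. By library totals alone PX 41 ranks above PX 65 and would take its place. Because a measured gene chose the animals, every difference between the 3 and the 8 is a description and carries no test.

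All animals were Lewis rats, labelled as 4-5 week rats, and islets, the endocrine clusters within the pancreas, were taken 4 weeks after surgery. In the PX group (n = 11) 90% of the pancreas had been removed, and the sham group (n = 10) had sham surgery. The labels give each animal a number and an average BG before sacrifice, without a unit. BG was 114, 110 and 174 in PX 58, 62 and 65, ran from 101 to 156 (median 114.5) in the other 8 PX and from 82 to 104 in sham. Polyadenylated RNA was sequenced from a directional library. Only the animal number says that libraries are separate animals, so p-values measure the spread between libraries. In such whole-islet RNA, fewer cells of a type and less RNA per cell cannot be told apart.

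Macrophages are the main resident immune cells of islets. When they take up debris or lipid they raise a shared set of genes: galectin-3 (Lgals3) and osteopontin (Spp1) are secreted proteins of such cells, and the interleukin-1 receptor antagonist (Il1rn) blocks the receptor through which interleukin-1 acts. Other genes of this state encode lipid handling proteins, lysosomal proteases and enzymes that digest extracellular matrix.

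Several measures of the libraries moved with the choice. Total counts were 9056756 to 13187959 in the 3 and 4001908 to 11205114 in the other 8. A list of 20 acinar genes (digestive enzymes of exocrine cells) took 22.3%, 26.6% and 47.1% of the counts in PX 58, 62 and 65, against 5.80% to 25.9% in the other 8. The TMM factor of PX 65 was 0.375, and the other 10 PX libraries had factors of at least 0.828. Mitochondrial genes took 1.39% to 1.89% in the 3 and 1.64% to 5.58% in the 8. All 3 animals have numbers between 57 and 70, as do PX 57, PX 66 and PX 70. The part of these measures in the differences below was not tested, and results are given within these numbers and without PX 65 where they bear on it.

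Of 13126 genes past the filter on low counts, the 3 libraries lay above all other 8 for 480 (3.66%) and below all 8 for 385 (2.93%). Those shares are the background for the counts of list members, but the same contrast chose the animals and they carry no test. The median difference over all genes was -0.05 on the log2 scale. The balance of the 2 directions depended on scaling: with library totals alone the counts were 27 above and 1016 below, and the median of all genes shifted to -0.62. With totals that leave out the acinar genes they were 137 and 596, with a median of -0.28, and with DESeq2 size factors 595 and 283. Differences are therefore read against the median of all genes.

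The promoters of 4 genes that carried the pattern are shown because their RNA moved together across these libraries: the markers Spp1 and Il1rn, and Ctsk and Mmp12, which were among the largest differences. Each runs from 250 bases before to 50 bases after the start of the gene in RefSeq (GRCr8), printed 5′ to 3′ in the direction of transcription, with motif matches in capitals. Spp1 lies at chr14:5619755-5620054, minus strand, Il1rn at chr3:27520072-27520371, plus strand, Ctsk at chr2:185747298-185747597, plus strand and Mmp12 at chr8:12866402-12866701, plus strand.
Spp1: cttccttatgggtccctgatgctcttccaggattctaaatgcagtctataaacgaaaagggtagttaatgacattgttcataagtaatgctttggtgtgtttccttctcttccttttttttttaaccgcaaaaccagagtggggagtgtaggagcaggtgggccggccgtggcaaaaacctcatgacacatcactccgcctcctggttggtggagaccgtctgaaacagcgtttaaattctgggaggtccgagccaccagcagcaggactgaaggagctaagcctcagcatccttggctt
Il1rn: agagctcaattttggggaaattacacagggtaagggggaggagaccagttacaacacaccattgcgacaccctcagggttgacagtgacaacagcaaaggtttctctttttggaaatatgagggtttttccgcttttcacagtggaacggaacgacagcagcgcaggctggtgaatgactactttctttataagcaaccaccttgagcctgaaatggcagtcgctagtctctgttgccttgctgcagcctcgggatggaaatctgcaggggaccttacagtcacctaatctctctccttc
Ctsk: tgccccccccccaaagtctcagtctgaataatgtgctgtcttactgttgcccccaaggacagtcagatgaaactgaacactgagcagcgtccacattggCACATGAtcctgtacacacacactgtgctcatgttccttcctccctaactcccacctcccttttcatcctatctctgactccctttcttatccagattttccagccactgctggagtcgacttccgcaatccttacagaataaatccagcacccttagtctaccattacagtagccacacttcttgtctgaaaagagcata
Mmp12: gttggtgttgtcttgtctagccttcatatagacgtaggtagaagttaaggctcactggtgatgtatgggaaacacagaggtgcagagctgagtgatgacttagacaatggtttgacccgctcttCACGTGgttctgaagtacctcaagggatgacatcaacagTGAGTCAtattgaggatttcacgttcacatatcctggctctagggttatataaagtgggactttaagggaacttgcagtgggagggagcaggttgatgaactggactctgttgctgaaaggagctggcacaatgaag

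Both strands were searched for TGANTCA (AP-1), GAGGAAGT (PU.1), CACGTG (an E-box) and TCATGTG (the M-box of MITF and TFEB factors), which do not overlap in these windows. The Ctsk window holds 1 M-box, whose first base lies 151 bases before the start. The Mmp12 window holds 1 AP-1 match at 87 bases and 1 CACGTG at 126 bases before the start, and the Spp1 and Il1rn windows hold none of the 4. Of the 33469 promoters of this length in the table, 7.33% hold TGANTCA, 2.42% GAGGAAGT, 6.42% CACGTG and 3.56% TCATGTG. Among the 3 markers and the 10 genes of highest difference, 11 distinct genes, 8 had an entry, and Lgals3, Fcgr2b and Hvcn1 had none. Of the 8, 1 holds TGANTCA, 1 CACGTG, 1 TCATGTG and 0 GAGGAAGT. A match is a description of letters and not of binding.

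Spp1 and Il1rn separated the same libraries as Lgals3, whose own separation the choice fixed. Lgals3 stood at 178, 188 and 80.0 CPM in PX 58, 62 and 65, and in the other 8 PX it ran from 10.8 to 42.4 (median 24.5). Spp1 reached 437, 710 and 546 CPM, against 35.5 to 318 (median 43.5) in the 8. Il1rn reached 68.7, 73.9 and 32.9 CPM, against 5.64 to 17.3 (median 7.85). Among the 8, PX 57 held the highest Spp1 (318 CPM) and PX 41 the highest Lgals3 (42.4 CPM), so the markers did not order these animals alike. Choosing the 3 highest by Spp1 gave the same 3 animals under TMM scaling. This too rests on the TMM factors, 0.375 in PX 65 and 0.828 in PX 57. By library totals alone PX 57 ranks above PX 65 for Spp1 and would take its place. Choosing by the mean level of a list of macrophage lineage genes gave PX 41, 58 and 62, with PX 65 in rank 4. The name "most inflamed" thus fits PX 58 and 62 by both lists, and PX 65 by the activation list alone under TMM scaling. The animals are therefore called here by their Lgals3 level. With the animals chosen by lineage score, 6 of 22 activation genes, 9 of 14 complement genes and 10 of 23 matrix genes lay above the others (3.43% of all genes), and 1 of 21 beta-cell identity genes lay below (2.76%). The acinar median was then 0.01.

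Sham libraries carried almost none of these RNAs, and the operated group as a whole was higher. Sham ran from 0.839 to 1.88 CPM for Lgals3, from 0.599 to 17.6 for Spp1 and from 0.120 to 1.31 for Il1rn. By edgeR's quasi-likelihood test with Benjamini-Hochberg adjustment, PX against sham gave a log2 fold change of 5.40 ± 0.61 (SE) for Lgals3 (adjusted p = 2.7e-06), 5.53 ± 0.76 for Spp1 (2.3e-05) and 5.28 ± 0.64 for Il1rn (4.6e-06). With PX 58, 62 and 65 left out, the other 8 PX against sham gave 4.13 for Lgals3, 4.35 for Spp1 and 4.04 for Il1rn. These values are given without a p because the choice removed the highest PX libraries of all 3 genes. Over all genes, 1806 of 13126 were higher in PX (13.8%) and 2458 lower (18.7%). The larger direction turned with the method: it was 2147 higher and 1692 lower with DESeq2 size factors, 2369 and 1814 with the DESeq2 test, and 2701 and 2377 without a filter. Without the 3 animals the counts were 1331 (10.2%) and 870 (6.66%) of 13054, so the count of lower genes moved by over 1.5 times.

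**Figure D1:**
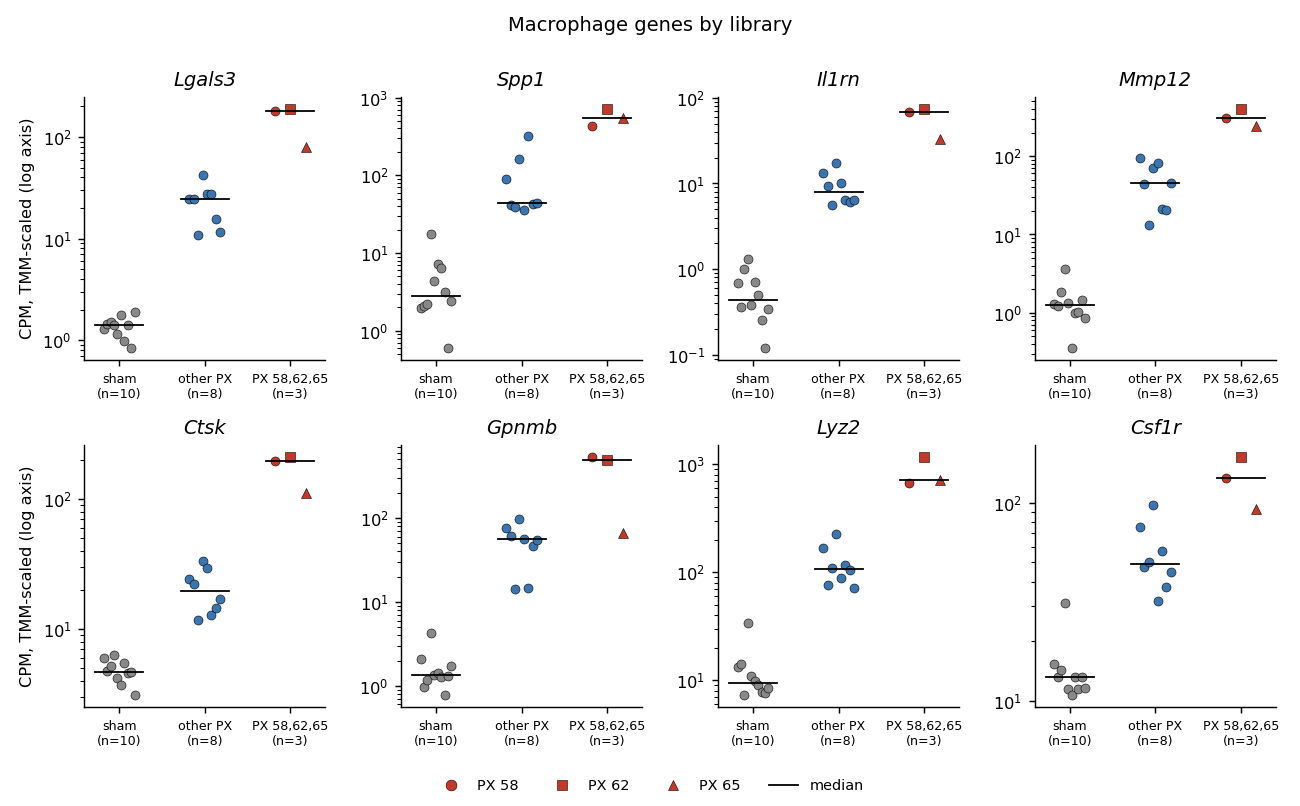
CPM after TMM scaling on a log axis for 8 macrophage genes, 1 point per library in sham, the other 8 PX and PX 58, 62 and 65, with bars at the group medians. The 3 libraries lie above all others for Lgals3, Spp1, Il1rn, Mmp12, Ctsk and Lyz2, and PX 65 falls among the other 8 for Gpnmb (66.1 CPM) and Csf1r (92.3 CPM).

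The 10 genes of highest difference without overlap were Ctsk, Spp1, Rnase1l2, Mmp12, Fcgr2b, Lyz2, Rnase1, Lgals3, Hvcn1 and Ccr1. Ctsk, the collagen-degrading protease cathepsin K known from osteoclasts, stood at 197, 212 and 111 CPM against 11.6 to 33.3 (median 19.6), a difference of 3.09 on the log2 scale. Mmp12, macrophage elastase, stood at 302, 398 and 240 CPM against 13.1 to 93.6 (median 45.0). Lyz2, the lysozyme of myeloid cells, stood at 674, 1175 and 708 CPM against 71.5 to 224 (median 107). For each of these 3 genes the lowest of the 3 libraries was more than the highest of the 8. Fcgr2b, an inhibitory receptor for IgG, stood at 46.5, 55.8 and 35.0 CPM against 3.35 to 14.3. Hvcn1, a proton channel of phagocytes, stood at 52.5, 65.5 and 26.3 CPM against 3.32 to 18.9, and the chemokine receptor Ccr1 at 41.5, 32.1 and 16.2 against 2.62 to 11.3. Both ribonucleases of this group, Rnase1 and Rnase1l2, were highest in PX 65, at 582 and 83.0 CPM, the library with the most acinar RNA. Rnase1 is a secreted ribonuclease of the exocrine pancreas. Of the 10, 9 were higher in PX than in sham (13.8% of all genes were) and 8 without the 3 animals (10.2%). The 10 were picked by the 3 libraries lying above the other 8, so these counts are partly fixed by the picking. Rnase1 did not pass either test (adjusted p = 0.19 and 0.85).

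The genes whose levels followed Lgals3 most closely over the 11 PX libraries were of several kinds. By Spearman correlation with log2 CPM, given as a description over 11 libraries that share the same scaling, they were Efhd2 (0.982), Nfe2l2 (0.964), Cxcr4 (0.955), Des (0.927), Klhl5 (0.918), Ptgs1 (0.918), Vim (0.918) and Arl11 (0.909). Nfe2l2 encodes the oxidative stress factor NRF2, Cxcr4 a chemokine receptor, Ptgs1 cyclooxygenase-1, and Des and Vim the filament proteins desmin and vimentin. Efhd2, a calcium-binding protein of immune cells, stood at 55.5, 54.3 and 43.2 CPM against 19.1 to 30.7 (median 23.0). Vim stood at 236, 231 and 173 CPM against 67.4 to 161 (median 77.8). All 8 were higher in PX than in sham, with and without the 3 animals (13.8% and 10.2% of all genes were). The 8 were picked for following Lgals3 inside PX and are not an independent set. The difference of Klhl5 between the 3 and the 8 turned to -0.19 under library totals alone. Ptgs1 was the one whose groups overlapped, at 15.7 CPM in PX 58 and up to 16.1 in the other 8.

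Of the activation list (25 genes, 24 in the file), 22 passed the filter, which asks for enough counts in about 10 libraries. The 3 libraries lay above all 8 for 10 of the 22, against 3.66% of all genes, and the median difference was 1.73 against -0.05. Of these 10, Lgals3 is there by the choice of animals. Besides the markers and Mmp12, these were Fabp5 and Fabp4 (fatty acid binding proteins), Apoe (lipid transport), Itgax (CD11c), Slc7a11 (cystine import) and Chi3l1 (a chitinase-like protein). Fabp5 stood at 29.8, 26.4 and 13.7 CPM against 1.005 to 7.29 (median 2.50). Slc7a11 stood at 77.6, 78.4 and 75.6 CPM, the most even of these genes among the 3, against 7.30 to 26.2 (median 15.9). Itgax stood at 114, 104 and 50.3 CPM against 14.3 to 43.3. Genes of cholesterol export showed nothing of the kind: Abca1 ran from 237 to 262 CPM in the 3 and from 226 to 324 in the 8, and Abcg1 from 95.8 to 105 and from 87.4 to 156. Arg1, often used as a marker of alternative activation, was at 50.7, 58.1 and 78.4 CPM within a range of 46.1 to 133. Abca1, Abcg1 and Arg1 already had sham medians of 278, 129 and 46.2 CPM, against 1.41 for Lgals3. Their levels within macrophages were not tested. Against sham, 20 of the 22 were higher in PX (13.8% of all genes), and 18 without the 3 animals (10.2%).

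Genes that were high only in the 3 libraries could miss the filter, and their values are given without counts. Mmp9, a gelatinase of neutrophils, macrophages and osteoclasts, stood at 59.3, 58.1 and 16.8 CPM against 0 to 11.2 (median 5.35), and at most 0.384 in sham. Trem2, a lipid receptor of macrophages, stood at 13.9, 16.4 and 8.29 CPM against 1.02 to 4.71. Atp6v0d2, a proton pump subunit of osteoclasts and macrophages, stood at 5.06, 4.08 and 1.62 CPM against 0 to 1.41, and Tfec, a relative of MITF, at 5.70, 7.90 and 4.04 against 0.332 to 2.13. Each of these genes lay above all 8, as 3.5% of all genes did without a filter, and they were named after their values were seen. Other list genes that missed the filter, such as Spi1, Il1b and Il1r2, overlapped. In sham Atp6v0d2 was at 0 counts in every library.

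Markers of macrophage identity were also higher in the 3. Of the lineage list 16 passed, all 16 differences were positive and the median was 1.40. Of these, 4 lay above all 8 (Mrc1, Fcgr1a, Cybb and Lyz2), against 3.66% of all genes. Without PX 65 the count was 12 of 16, against 7.60% of all genes. Csf1r, the receptor for the macrophage growth factor, stood at 132, 170 and 92.3 CPM against 31.9 to 97.5 (median 49.03), and PX 41 lay above PX 65. Mrc1, the mannose receptor, stood at 49.9, 75.1 and 44.9 CPM against 9.34 to 30.4. Cybb, the catalytic subunit of the phagocyte oxidase, stood at 128, 163 and 82.4 CPM against 19.8 to 59.0. Mertk, a receptor for dying cells, and Cx3cr1, a receptor of resident macrophages, overlapped, at 27.7 to 32.5 against 24.02 to 40.9 CPM and at 13.1 to 22.2 against 6.56 to 23.3. Against sham, 14 of the 16 were higher (13.8% of all genes) and 1, Mertk, lower (18.7%). Without the 3 animals 14 were higher (10.2%).

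Ratios to Csf1r within a library, which no scaling can change, differed among genes. Lyz2 over Csf1r was 5.10, 6.89 and 7.67 in PX 58, 62 and 65 and 1.599 to 2.81 in the other 8, without overlap. Ctsk over Csf1r was 1.49, 1.25 and 1.20, with PX 44 the nearest of the 8 at 0.928. Lgals3 over Csf1r was 1.35, 1.10 and 0.867, and PX 44 had 0.859. Mmp12 over Csf1r was 2.29, 2.34 and 2.60, and PX 44, at 2.55, lay inside that range. Spp1 over Csf1r was 3.30, 4.17 and 5.91, and PX 57, at 5.60, lay inside that range. Gpnmb over Csf1r was 4.09, 2.88 and 0.7155 against 0.258 to 1.77, with overlap. Il1rn over Csf1r was 0.519, 0.4335 and 0.357 against 0.112 to 0.315. Over the whole lists, the activation score minus the lineage score (means of log2 CPM) was 1.25, 0.91 and 1.17 in the 3, inside the 0.54 to 1.33 of the other 8.

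**Figure D2:**
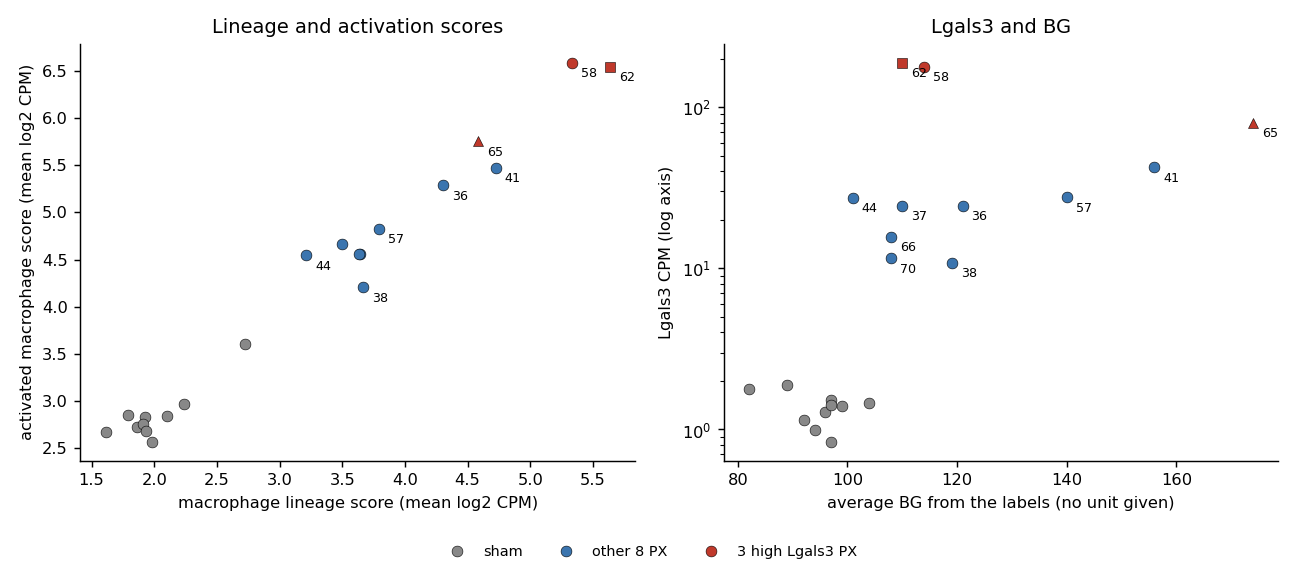
Left, the mean log2 CPM of 16 macrophage lineage genes against that of 22 activation genes, 1 point per library, with most PX animal numbers printed. Right, Lgals3 CPM (log axis) against the average BG of the labels: PX 58 and 62 have BG of 114 and 110, within the middle of the group, and PX 65 has the highest BG, 174.

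The 3 libraries were not alike. PX 58 lay above all 8 for 19 of the 22 activation genes, PX 62 for 16 and PX 65 for 11, where 11.7%, 12.8% and 16.6% of all genes did so in those libraries. For the lineage list the counts were 13, 12 and 4 of 16. Gpnmb, a lysosomal glycoprotein of lipid-laden macrophages, stood at 540 and 491 CPM in PX 58 and 62 but at 66.1 in PX 65, inside the 14.4 to 96.2 of the 8. PX 58 was the highest of the 3 for some genes. The chemokine genes Ccl2 and Ccl7 stood at 81.9 and 70.7 CPM there, against 12.7 to 23.96 in PX 62 and 65. Timp1, an inhibitor of matrix proteases, was 136 CPM there against 39.4 and 15.6. PX 62 held the highest class II antigen presentation genes (RT1-Da at 872 CPM, against 422 and 343) and interferon-induced Mx1 at 27.5 CPM against 6.03 and 5.25. PX 65 held the highest acinar genes and Reg3a, a secreted lectin of injured exocrine tissue, at 3935 CPM against 679 and 164. These genes were singled out after their values were seen.

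Of the lysosomal genes without overlap, all 4 encode proteases. Of 21 list members past the filter, Ctsk, Ctsc, Ctss and Ctsd lay above all 8 (3.66% of all genes), with a list median of 0.48. Without PX 65 the count was 9 of 21, against 7.60% of all genes. Ctsc, the protease that activates granule enzymes, stood at 107, 139 and 174 CPM against 26.1 to 56.7 (median 38.6). Ctss, which trims the class II invariant chain, stood at 50.3, 72.6 and 57.4 CPM against 11.4 to 39.0. Lamp1 and Lamp2, membrane proteins of lysosomes in all cells, overlapped, with differences of 0.22 and 0.03. Under library totals alone the list median was -0.11, above the -0.62 of all genes. Against sham, 12 of 21 were higher (13.8% of all genes) and 1 lower (18.7%). Without the 3 animals 8 were higher (10.2%).

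Antigen presentation genes were higher in the 3 as well. Of 13 past the filter, 6 lay above all 8 (Cd74, RT1-Db1, RT1-Ba, Ciita, Tap1 and Psmb8), against 3.66% of all genes. Their list median was 1.35. Cd74, the class II invariant chain, stood at 645, 984 and 579 CPM against 166 to 445 (median 257), and Ciita, the regulator of class II genes, at 24.2, 28.4 and 11.7 against 4.50 to 11.6. RT1 genes are a family of near-identical copies whose counts are uncertain. Against sham 11 of 13 were higher (13.8% of all genes), and 10 without the 3 animals (10.2%). With all 3 animals, none of 15 interferon response genes and none of 14 complement genes lay above or below all 8. Over all genes the shares were 3.66% above and 2.93% below. Without PX 65, 5 of 14 complement and 3 of 15 interferon genes lay above (7.60% of all genes). Within animal numbers 57 to 70 the counts were 10 of 14 and 3 of 15 (9.16%). C3, the central complement protein, stood at 158, 206 and 95.2 CPM against 12.9 to 108, with PX 65 inside the range of the 8. The list medians were 0.59 and 0.88. C3 rose in PX over sham by 5.61 ± 0.63 (adjusted p = 2.5e-06, edgeR), and by 5.08 ± 0.60 without the 3 animals.

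Il1b, which encodes interleukin-1 beta, differed in the same direction as its antagonist. It stood at 6.67, 8.28 and 2.22 CPM against 0.222 to 4.06 in the 8 and 0.168 to 0.604 in sham, with PX 65 inside the range of the 8. The difference was 1.82 on the log2 scale, and 2.64 for Il1rn. Il1a, Il6 and Tnf, which encode inflammatory cytokines, reached at most 0.538, 1.72 and 0.127 CPM in the 3. The receptor gene Il1r1 ran from 492 to 521 CPM in the 3 and from 476 to 881 in the 8. Of 11 cytokine and chemokine genes past the filter, Cxcl16 alone lay above all 8 (3.66% of all genes). It stood at 51.8, 64.9 and 50.7 CPM against 23.5 to 47.6. The count of genes above was 4 of 11 without PX 65 (7.60% of all genes) and 7 of 11 within animal numbers 57 to 70 (9.16%). Nlrp3, the inflammasome sensor, stood at 14.96, 13.9 and 6.47 CPM against 2.03 to 8.52.

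Markers of other leukocytes were measured beside these genes, and their part in the results was not tested. The 12 neutrophil genes summed to 23.4 to 77.1 CPM in the 3, 4.32 to 21.6 in the other 8 and 0.505 to 4.59 in sham, and Mmp9 was the largest single value in the PX libraries. The granule genes Mpo and Elane reached at most 0.202 and 0.127 CPM in the 3 and S100a8 at most 0.255, and each of these had at least 1 library at 0 counts. Of the other members, Cxcr2, a chemokine receptor of neutrophils, lay above all 8 at 2.05, 2.68 and 1.62 CPM against 0 to 0.838. Fcnb, a ficolin, stood at 11.8, 6.88 and 0.404 CPM against 0.122 to 3.65, and Retnlg at 0.753, 0.637 and 3.03 against 0 to 1.10. The 13 T and NK cell genes summed to 44.7 to 92.0 CPM in the 3, 16.8 to 45.2 in the 8 and 9.95 to 20.2 in sham. Cd4, which rat macrophages also express, gave the largest value, and Cd3e stood at 0.753, 3.19 and 0.606 CPM. The 7 B cell genes summed to 2.63 to 5.74 CPM in the 3 and 0.529 to 6.56 in the 8, with Pax5 at 0 counts in all 3. Clec9a, a marker of cross-presenting dendritic cells, was low but above all 8, at 3.01, 7.65 and 2.42 CPM against 0.222 to 1.31. Clec10a, a lectin of dendritic cells and macrophages, stood at 81.2, 127 and 66.9 CPM against 11.0 to 59.8.

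**Figure D3:**
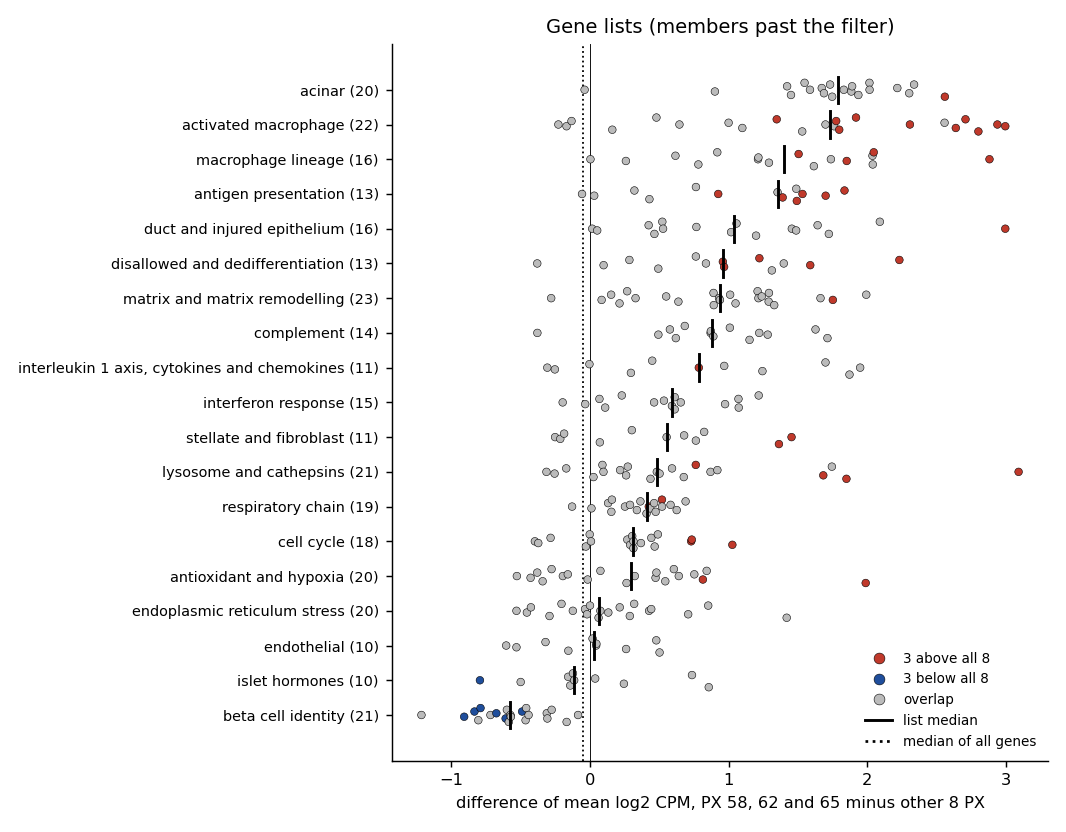
Difference of mean log2 CPM (PX 58, 62 and 65 minus the other 8 PX) for each list member past the filter, with list size in brackets, bars at list medians and a dotted line at the median of all genes (-0.05). Red and blue points are genes without overlap. Of 22 activation genes 10 lie above all 8 (3.66% of all genes), and 6 of 21 beta-cell genes lie below (2.93%).

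Matrix genes were high in PX islets with and without the 3 animals. All 23 were higher in PX than in sham (13.8% of all genes were), and all 23 again without the 3 animals (10.2%). Inside PX, Postn, a matrix protein of injured tissue, was the one of the 23 above all 8 (3.66% of all genes). It stood at 124, 208 and 179 CPM against 22.9 to 117. Col1a1, a chain of type I collagen, overlapped widely (241, 376 and 102 CPM against 17.9 to 379), and the list median was 0.94. This count turned on PX 65: without it 9 of 23 lay above all 8 (7.60% of all genes), with a median of 1.38, and within animal numbers 57 to 70 the count was 10 of 23 (9.16%). Of 11 stellate and fibroblast genes, Des and Pi16 lay above all 8 (3.66% of all genes), with a median of 0.55. None of 10 endothelial genes did, with a median of 0.03. Without PX 65, 4 of 11 stellate genes lay above all 8 (7.60% of all genes). Under library totals alone these medians were -0.03 and -0.56, against -0.62 for all genes.

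Acinar genes were highest in PX 65, where 19 of 20 lay above all 8, against 2 in PX 58 and 9 in PX 62. Over all genes the shares in PX 65, 58 and 62 were 16.6%, 11.7% and 12.8%. The median of the 20 acinar genes was 1.79, and 1.04 without PX 65. Ctrb1, chymotrypsinogen, reached 186000 CPM in PX 65 against 46130 and 60090 in PX 58 and 62. Clps, the lipase cofactor, was the one of the 20 above all 8 in all 3 libraries (3.66% of all genes). Against sham 3 of 20 were higher, near the 13.8% of all genes, and 0 of 20 without the 3 animals (10.2%) by edgeR. Krt19, a keratin of duct cells, which also express Spp1, overlapped at 52.5, 39.1 and 41.4 CPM against 12.2 to 66.2. The duct list median was 1.04 over 16 genes.

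Beta-cell genes were lower in the 3 libraries. All 21 members of the beta-cell identity list had a negative difference, with a median of -0.57 against -0.05 for all genes, and 6 lay below all 8 against 2.93% of all genes. With the 3 animals of highest lineage score, PX 41, 58 and 62, 1 of 21 lay below the others (2.76% of all genes), with a median of -0.39. Glp1r, the receptor for the incretin GLP-1, stood at 103, 95.8 and 79.0 CPM against 117 to 231 (median 180). Gipr, the receptor for the incretin GIP, stood at 223, 186 and 158 CPM against 243 to 442 (median 327). Nkx2-2 and Rfx6, transcription factors of islet cells, and Abcc8, the sulfonylurea receptor, also lay below all 8. Rfx6 was even, at 55.9, 57.5 and 56.8 CPM, with PX 41 just above at 57.6. Slc2a2, the glucose transporter GLUT2, stood at 1123, 1510 and 1193 CPM against 1432 to 4040 (median 2279), and overlapped through PX 62.

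The hormone genes did not follow as a list. Of 10, 4 had a positive and 6 a negative difference, with a median of -0.12, which was 0.12 without PX 65. Iapp differed by -0.50 with overlap, Ppy by 0.74 and Pyy by 0.86. Ins1 stood at 74880, 81680 and 49390 CPM against 41190 to 154900, and Gcg, glucagon, at 10010, 10240 and 6501 against 4378 to 25540. Of 10 hormone and granule genes, Scg2, a secretogranin, was the one below all 8 (2.93% of all genes). It stood at 867, 1099 and 709.9 CPM against 1119 to 2344. Reads of the closely similar Ins1 and Ins2 could be split between them by the counting, which makes each level uncertain. The beta-cell score minus the hormone score was -3.81, -4.03 and -4.06 in the 3 and ran from -3.82 to -2.69 in the 8, with PX 41 the lowest of the 8 and just below PX 58.

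In the test against sham, the count of lower beta-cell genes fell without these 3 animals, as did the count over all genes. With all PX libraries 13 of 21 were lower than sham (18.7% of all genes were), and with the other 8 PX alone 4 of 21 (6.66%). Glp1r fell by 0.61 ± 0.16 on the log2 scale (adjusted p = 0.0052, edgeR) and by 0.36 without the 3. Gipr fell by 0.46 ± 0.16 (0.029), and without the 3 its change was -0.23. The 3 libraries were the lowest of PX for Glp1r and Gipr. Leaving them out therefore shrinks both falls by itself, and these smaller values are given without a p. Pax6, an islet transcription factor, fell with and without the 3, by 0.67 ± 0.14 (0.00081) and 0.53 ± 0.11 (0.0022). Dropping 3 libraries also lowers the number of calls over all genes, as the background shares show.

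**Figure D4:**
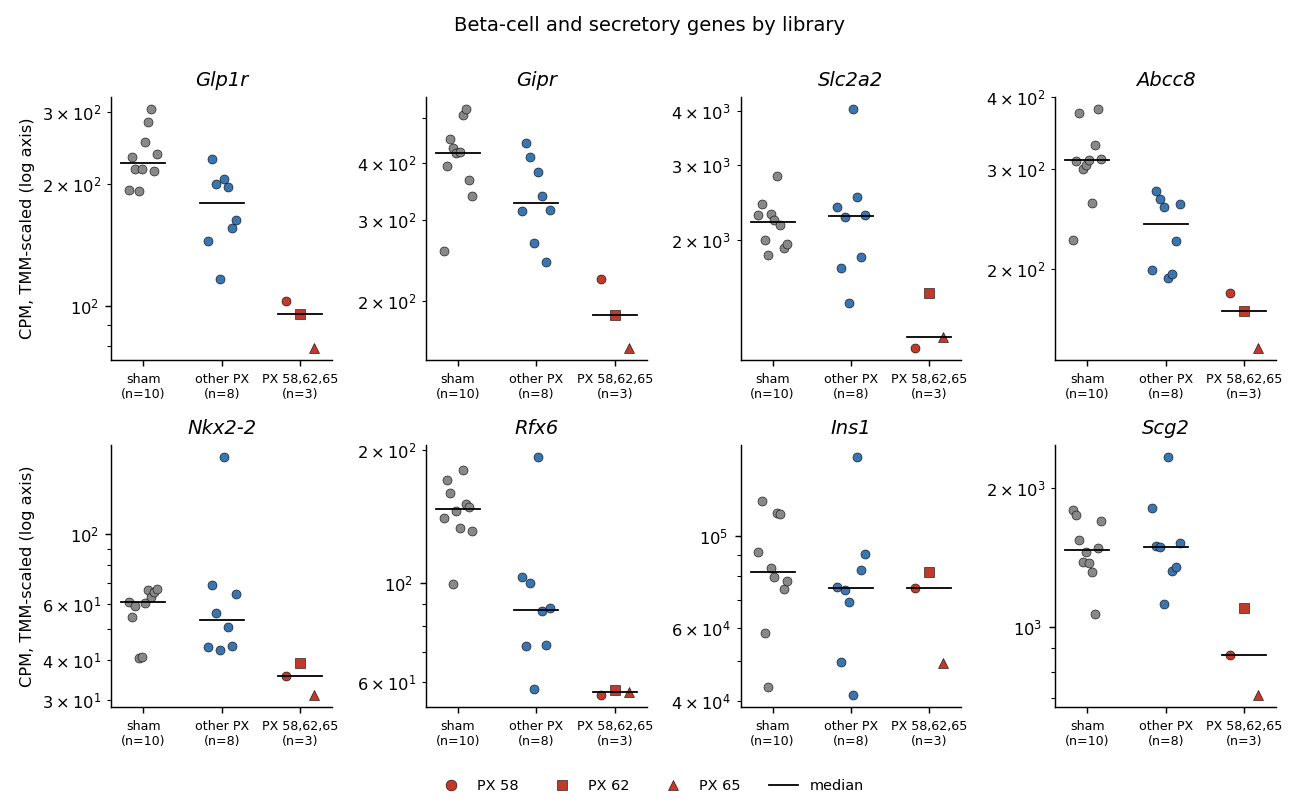
CPM after TMM scaling on a log axis for 8 beta-cell and secretory genes, 1 point per library with bars at group medians. PX 58, 62 and 65 lie below all other PX for Glp1r, Gipr, Abcc8, Nkx2-2, Rfx6 and Scg2, and within the range of the other 8 for Ins1.

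The 10 genes of lowest difference were of smaller size than the highest. They were Arhgap36, Vwa5b2, Plxdc1, Fam169a, Fam163b, Plag1, Gem, Atp2b3, Glp1r and Acsl6, with differences from -1.05 to -0.89. Arhgap36 stood at 75.1, 67.5 and 48.9 CPM against 78.2 to 236 (median 134), and Atp2b3, a calcium pump of the plasma membrane, at 8.39, 8.41 and 7.27 against 10.9 to 27.6. Gem, a small GTPase that restrains calcium channels, stood at 25.2, 29.2 and 24.6 CPM against 37.7 to 128. For 8 of the 10 the 3 libraries also lay below every sham library. Against sham 6 of the 10 were lower (18.7% of all genes), and 3 without the 3 animals (6.66%). The 10 were picked by the 3 libraries lying below the other 8, so these counts and their fall are partly fixed by the picking.

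Genes that mature beta cells usually keep silent were higher in the 3. Of 13 past the filter, 5 lay above all 8 (Ldha, Mgst1, Vim, Slc16a1 and Rest), against 3.66% of all genes, with a median of 0.96. Without PX 65 the count was 8 of 13 (7.60% of all genes). Ldha, lactate dehydrogenase A, stood at 56.8, 60.3 and 34.8 CPM against 5.03 to 19.8 (median 10.7), and Slc16a1, a lactate transporter, at 9.69, 9.81 and 7.88 against 2.91 to 7.73. Macrophages and other cells express several of these genes, and the source of the RNA was not tested. Aldh1a3, linked to beta-cell dedifferentiation, overlapped (20.6, 24.9 and 27.1 CPM against 12.7 to 34.7).

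Stress and growth genes differed in single members. Gpx1, glutathione peroxidase, stood at 128, 163 and 181 CPM against 10.4 to 76.1 (median 42.5), and Slc2a1, the glucose transporter GLUT1, at 62.1, 62.3 and 56.6 against 26.9 to 45.4. Those were the 2 of 20 antioxidant and hypoxia genes above all 8 (3.66% of all genes). None of 20 endoplasmic reticulum stress genes lay outside the 8 (3.66% of all genes lay above and 2.93% below). Their median was 0.07, and -0.52 under library totals alone. Of 18 cell cycle genes, Cdkn1a (the inhibitor p21), Ccnb1 (cyclin B1) and Mcm3 (replication licensing) lay above all 8 (3.66% of all genes). Cdkn1a stood at 32.3, 27.8 and 34.8 CPM against 9.35 to 20.01. Mki67, the proliferation marker, overlapped at 26.4, 23.7 and 31.5 CPM against 13.6 to 27.5. Of 19 respiratory chain genes, Sdha and Atp5f1b lay above all 8 (3.66% of all genes).

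Counts within the run of animal numbers and without PX 65 were as follows. Against PX 57, 66 and 70 alone, 15 of 22 activation genes were above all 3 others (9.16% of all genes were) and 17 of 21 beta-cell genes below (9.79%). Without PX 65, 16 of 22 activation genes and 12 of 16 lineage genes lay above all 8 (7.60% of all genes), and 6 of 21 beta-cell genes below (6.37%), with medians of 2.01, 1.76 and -0.42. Under library totals alone 1 of 22 activation genes lay above all 8 (0.206% of all genes), with a list median of 1.15. In that setting 10 of 21 beta-cell genes lay below (7.74% of all genes), with a median of -1.16. The median of all genes was then the shifted -0.62.

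BG, the labelled average before sacrifice, was compared next. Mean BG was 133 ± 35.9 (SD, n = 3) in PX 58, 62 and 65 and 120 ± 18.7 (n = 8) in the others, a difference of 12.3 with p = 0.521 in a two-sided exact permutation test over all 165 choices of 3 of 11, where the smallest possible p is 0.0061. Without PX 65 the difference was -8.38 (p = 0.644, exact permutation). In edgeR fits of BG over the 11 PX libraries, 0 of 14179 genes passed (0%), 1744 had an unadjusted p under 0.05, and DESeq2 called 13 higher and 15 lower. The Lgals3 slope was -0.01 ± 0.18 (SE) on the log2 scale per 10 units of BG, that of Il1rn -0.01 ± 0.18, of Spp1 0.20 ± 0.19 and of Gpnmb -0.24 ± 0.23, each with an adjusted p of at least 0.669. These errors allow slopes of either sign. On simulated counts the BG fit recovered 53% of slopes of log2 size 0.25 and 93.9% of size 0.5, so many smaller slopes would be missed.

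Sham libraries, which the choice did not use, offered little range in which to test the same relation. Lgals3 had 6 to 13 reads per sham library. In an edgeR fit on its log2 CPM, 0 of 13470 other genes passed (0%), 61 had an unadjusted p under 0.05 and DESeq2 called 0. On simulated counts this fit recovered 7% of slopes of log2 size 1 and 69.4% of size 2, so most slopes of size 1 would be missed. That simulation took the Lgals3 values as exact, which 6 to 13 reads do not give.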

How the data were processed

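Gene counts were measured by RNA-seq in 21 islet libraries. The authors deposited raw counts per gene, per the file headers, and the submitters' processing notes name FastQC, Subread, featureCounts and limma without versions. For the genome build and for strandedness during counting, nothing was given in the sources used. The animals and gene lists were chosen with earlier results of these data known.

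Counts were scaled by TMM and filtered with filterByExpr (minimum count 10, minimum total 15) in edgeR 4.0.16 (R 4.3.3), and log2 CPM used a prior count of 2. PX was compared with sham, with all 11 and with the other 8 PX, and slopes on BG (in PX) and on Lgals3 (in sham) were fitted, all by edgeR's quasi-likelihood test with Benjamini-Hochberg adjustment at 0.05. DESeq2 1.42.0 was an alternative. The test was checked on simulated counts with known changes. There 5.05% of calls were false for PX against sham, 7.59% for the BG slope and 7.41% for the Lgals3 slope. BG was compared by an exact permutation test. The 3 and the other 8 PX were described by overlap and difference of mean log2 CPM, without a test. A list's score is the mean log2 CPM of its members past the filter. The 23 lists hold 405 distinct genes, of which 391 are in the data and 314 passed the filter.

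Genes named by rule were the 10 of highest and the 10 of lowest difference without overlap, and the 8 most like Lgals3. These had a mean of at least 10 CPM over PX. Up to 4 members of each list past the filter were also named by rule, without that minimum. Other list members were named after their values were seen. Of 28914 gene names, 173 lie on more than 1 chromosome or scaffold and 2 stand on 2 rows. No pair of libraries matched within sampling noise (lowest chi-square per degree of freedom 16.5, PX 38 and PX 41). Total counts ran from 4001908 to 13187959. Promoters come from RefSeq (GRCr8). Some list members are counted but not reported here by name.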

Additional observations from a re-analysis of the deposited data

Results flagged for a closer look

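Among the sham libraries (n = 10), 20 of the 109 values checked had a highest or lowest library far from the other 9. Chance does so in about 1 in 20 groups. Of the 20, 17 were Sham 46, so the flags are not independent of each other. All values are log2 CPM.

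Sham 46 was the highest for Lyz2 (5.10), Vim (5.26), Arl11 (1.01), C1s (4.72), Ifi27 (6.96), Postn (3.50), Mmp2 (4.73) and Dpt (4.98). It was also the highest for Pdgfra (4.64), Vwf (7.05), Anxa2 (5.06), Mcm3 (3.37) and the activation score (3.61). It was the lowest for Fam163b (4.60), Plag1 (1.95), Mx2 (-0.292) and Trpm5 (3.73).

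Sham 50 was the lowest for Ccr1 (-1.33), Sham 47 for Psmb8 (0.507) and Sham 22 for Pyy (1.92).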

How the results depend on the processing

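No paired analysis was possible because the groups share no animal numbers. The number of genes in which the 3 libraries lay beyond the other 8, 480 above and 385 below, depended on scaling and on the animals compared. It was 27 and 1016 with library totals alone, 137 and 596 with totals without the acinar genes, and 734 above without a filter. It was 1202 and 1285 within animal numbers 57 to 70, and 1758 and 1728 among animals of BG 121 or less, where fewer libraries have to be passed. Leaving out 1 of the 3 gave 652 to 998 above and 659 to 836 below. Genes lower in PX than in sham numbered 870 without PX 58, 62 and 65, with fewer samples. For the BG slope, 6 genes were called higher without a filter, and DESeq2 called 13 higher and 15 lower; the cause was not tested. The BG difference of 12.3 turned to -8.38 without PX 65 and to -0.5 for medians. With library totals alone the differences of Klhl5 (-0.19), Egfl7 (-0.08), Plvap (-0.11), Top2a (-0.10), Cox6c (-0.01) and Uqcrfs1 (-0.07) turned negative. An alternative filter, a count of 10 or more in 3 PX libraries, was chosen after seeing the data and gave 599 above and 385 below. Sham Lgals3 had 6 to 13 reads, which limits the slope on it.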
